A study of Homo sapiens with 14 samples.

Results

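The E2F transcription factors and their DP partners were followed in HEK293T cells that had received miR-34a or a form of it with bases missing. The genes are E2F1 to E2F8, TFDP1 and TFDP2, taken by symbol, and all 10 were found among the 63140 genes of the count table and among the 18321 with enough counts to be tested. HEK293T, derived from human embryonic kidney, is a line with the large T antigen of SV40. The 5 control samples were transfected with AllStars negative control siRNA (Qiagen). The 5 samples of miR-34a-WT were given a duplex of miR-34a with its natural bases. The 4 samples of miR-34a-RS (replicates 1, 2, 3 and 5) were given the duplex whose guide has rSpacer, an abasic residue with backbone but no base, at positions 13 and 14 from the 5′ end. RNA was taken 24 h after transfection in every group, and the study asked what pairing beyond the seed adds to the action of the microRNA.

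E2F proteins bind DNA as dimers with a DP protein and switch on the genes of the G1 to S transition. The RB family of pocket proteins holds them in check until cyclin-dependent kinases phosphorylate the pocket proteins. E2F1, E2F2 and E2F3 are known mainly as activators, E2F4 and E2F5 as repressors that work with pocket proteins, E2F6 as a repressor that works with Polycomb proteins, and E2F7 and E2F8 as atypical repressors that need no DP partner. Large T antigen binds the pocket proteins, so the restraint on E2F in this line differs from that in cells without it. A microRNA lowers transcripts that carry a match to its seed, the bases near its 5′ end, chiefly in the 3′ UTR.

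The 2 sequences below are the mature guide from RefSeq (GRCh38.p14, chromosome 1, 9151735 to 9151756, minus strand). The first has the seed, positions 2 to 8, in capitals, and the second has in capitals the 2 positions that are abasic in miR-34a-RS.
miR-34a, seed: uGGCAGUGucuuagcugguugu
miR-34a, abasic positions: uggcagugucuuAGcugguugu

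Of the 10 genes, 4 carry a match to this seed in the longest annotated 3′ UTR, and these are E2F2, E2F3, E2F5 and TFDP2. Matches are an 8mer (CACTGCCA), a 7mer-m8 (CACTGCC), a 7mer-A1 (ACTGCCA) or a 6mer (ACTGCC), each counted once under its longest form. Among the 13608 tested genes with an annotated 3′ UTR, 35.1% carried at least 1 match and 6.03% an 8mer. The sites outside E2F5 are shown because they are the candidate contact points of the guide, as 30 bases of the GENCODE 29 transcript on GRCh38 with the match in capitals.
E2F2, 7mer-A1: gaagggtcagattaaaacaaaaaACTGCCA
E2F3, 8mer: aaaatagcaattaatttgtaaaCACTGCCA
TFDP2, 6mer, first site: tgacgtttctcttccttgcctggACTGCCt
TFDP2, 7mer-m8: tgtgcattaaatactttgccagCACTGCCt
TFDP2, 6mer, last site: actagaaaacgttgaacactcctACTGCCt

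All these windows lie in 3′ UTR exons. The E2F2 window is chr1:23508858-23508887 on the minus strand, and its match starts 1016 bases into a 3′ UTR of 3450 bases. The E2F3 window is chr6:20493138-20493167 on the plus strand, and its match starts 2730 bases into a 3′ UTR of 3285 bases, near the end of the transcript. The TFDP2 windows are chr3:141952088-141952117, chr3:141951753-141951782 and chr3:141951355-141951384 on the minus strand, in a 3′ UTR of 8085 bases that is longer than those of 97.8% of tested genes. E2F5 has 3 matches close together in a 3′ UTR of only 656 bases, a 7mer-A1, a 6mer and an 8mer that start at bases 371, 382 and 424. E2F1, E2F4, E2F6, E2F7, E2F8 and TFDP1 have none there. The coding sequence of E2F3 holds 1 more match, not an 8mer, whose upstream bases are not given here. No 3′ UTR site of the 10 genes, of any type, has AGCT within the searched 1 to 15 bases upstream. These letters pair with guide positions 13 to 16. Only 1.64% of the 13608 genes have an 8mer or 7mer-m8 with them, so none among 10 genes is near that share. A match is a description of the letters and not a measured site of binding.

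**Figure D1:**
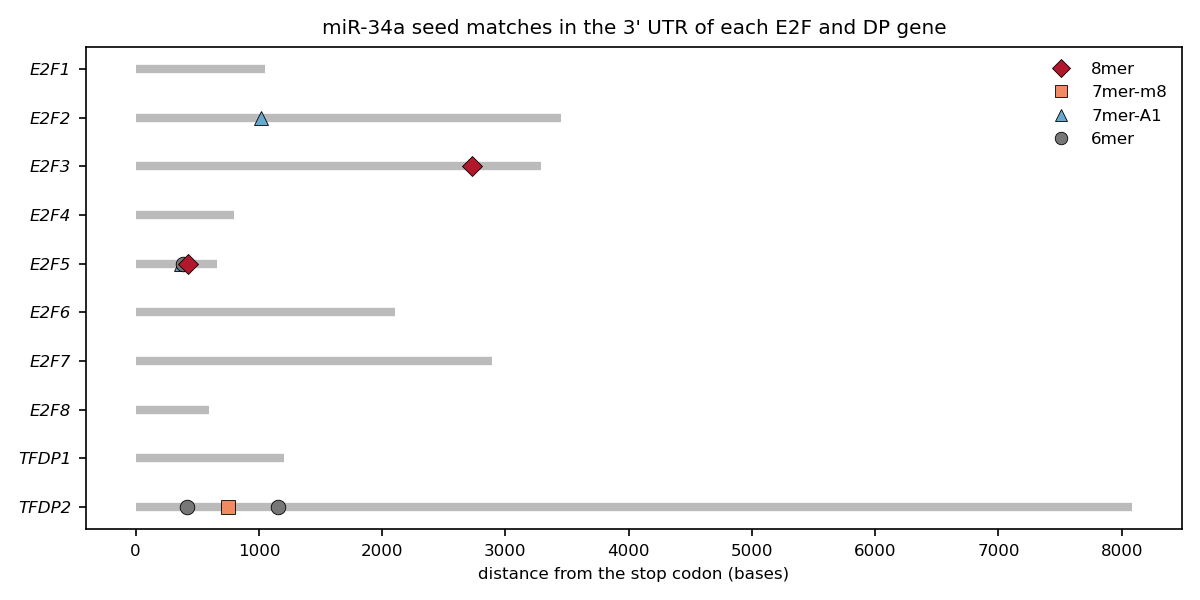
Seed matches of miR-34a along the longest annotated 3′ UTR of each gene, with the distance from the stop codon in bases on the horizontal axis, a grey bar for each 3′ UTR and a symbol for each match by type. Matches occur in 4 of the 10 genes, and the 3 of E2F5 crowd into its short 3′ UTR.

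Per length of exon, as CPM (counts scaled to equal library totals) divided by exon length in kilobases (FPKM), TFDP1 led the 10 genes in control cells at 66.1, followed by E2F1 at 37.7, E2F4 at 33.9, E2F3 at 26.1 and E2F7 at 13.7 FPKM. E2F2, E2F8, E2F5, TFDP2 and E2F6 followed at 10.4, 8.40, 7.08, 6.80 and 5.81 FPKM. The control libraries of E2F1 and E2F4 overlapped, as did those of E2F5 and TFDP2, and the other neighbours in this order did not. E2F1 and E2F4 changed places when the longest transcript gave the length. With either microRNA TFDP1 stayed first and E2F5 moved from rank 8 to rank 10, at 2.24 FPKM with miR-34a-WT and 2.22 FPKM with the abasic duplex, and E2F8 moved ahead of E2F2.

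**Figure D2:**
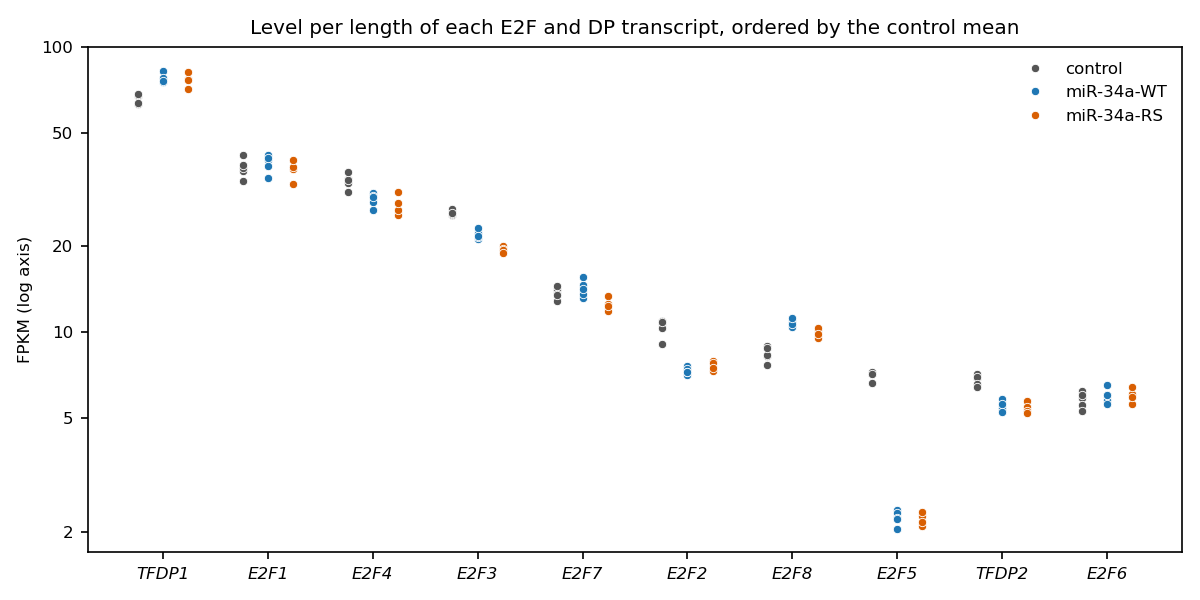
FPKM of each gene in each library on a log axis, with genes ordered by the control mean and 1 point per library of the 3 groups. TFDP1 is highest in every group, and E2F5 drops from 7.08 to 2.24 and 2.22 FPKM.

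In miR-34a-WT against control, 5 of the 10 genes fell and 2 rose at an adjusted p under 0.05, by edgeR's quasi-likelihood test adjusted over all tested genes. Of all tested genes 21.3% fell and 18.9% rose in this comparison. E2F5, E2F2, TFDP2, E2F3 and E2F4 fell, and E2F8 and TFDP1 rose. E2F1, E2F6 and E2F7 did not pass. The groups did not overlap for the 5 that fell and the 2 that rose, as for 15.1% of all tested genes in the lower and 13.8% in the higher direction. The median log2 fold change of the 10 was -0.085, against -0.019 over all tested genes. In bulk RNA, fewer cells that hold a transcript and less of it in each cell cannot be told apart.

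In miR-34a-RS against control the counts were again 5 fallen and 2 risen, where 18.4% of all tested genes fell and 16.2% rose. The groups again did not overlap for 5 lower and 2 higher genes, against 14.4% and 12.6% of all tested genes. The median of the 10 was -0.20, against -0.014 over all genes. This comparison uses the same control libraries as the first, so the values are given side by side and the likeness is not a second piece of evidence. All 4 genes with a seed match were among the fallen in each comparison. Of the 6 without one, 1 fell, 2 rose and 3 did not pass in each. Over all tested genes, 52.2% with an 8mer as best match fell with miR-34a-WT, 42.0% with a 7mer-m8 and 33.6% with a 7mer-A1, and the shares with miR-34a-RS were 50.1%, 36.7% and 35%. Of genes with no match 17.3% fell and 27.1% rose with miR-34a-WT, and 14% fell and 23.1% rose with miR-34a-RS, so the counts among the 6 are near what such genes show.

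**Figure D3:**
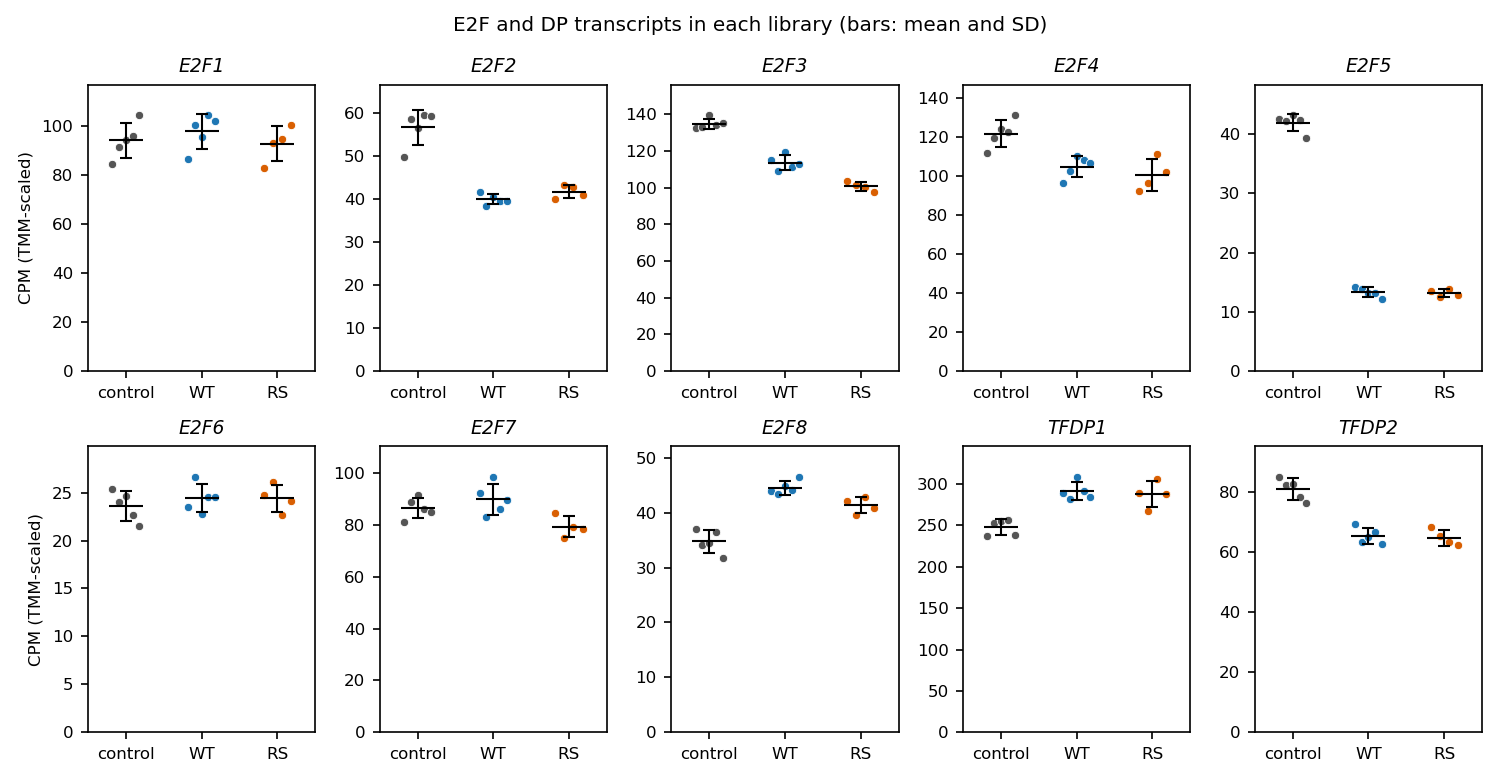
CPM of each gene in each library, with 1 point per library and bars for the mean and SD of each group, which holds 5 control, 5 miR-34a-WT or 4 miR-34a-RS libraries. E2F5 falls to about the same low level with both microRNAs, and E2F3 is lowest with miR-34a-RS.

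E2F5, which encodes a repressor E2F that partners with pocket proteins, gave the largest change of the family. Its control libraries 1 to 5 had 42.6, 42.2, 43.2, 42.4 and 39.4 CPM. With miR-34a-WT replicates 1 to 5 had 14.2, 13.8, 13.2, 13.2 and 12.1 CPM, and with miR-34a-RS replicates 1, 2, 3 and 5 had 13.5, 12.4, 13.9 and 12.8 CPM. Every microRNA library was below every control library, and the microRNA groups overlapped. The fall was 1.66 on the log2 scale with miR-34a-WT (log2 fold change -1.66, SE 0.05, adjusted p = 8.74e-18), which left 31.6% of the control level. With miR-34a-RS the log2 fold change was -1.67 (SE 0.06, adjusted p = 5.11e-17), which left 31.3%.

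Counted from the lowest log2 fold change, E2F5 ranked 19 of 18321 genes in each comparison with control. Among the 820 genes whose best match is an 8mer it ranked 7 with miR-34a-WT and 6 with the abasic duplex, where the class medians were -0.22 and -0.20. The difference between the microRNAs was -0.013 (95% interval -0.14 to 0.11, adjusted p = 0.965). E2F5 shares 969 exon bases with RBIS and 133 with an antisense gene that has no symbol and 1 to 8 counts per library, both on the opposite strand, and the library kit does not mark strand. RBIS, examined for this reason after its values were seen, was at 23.0 ± 4.3 CPM in the 5 control libraries (mean ± SD), 24.0 ± 3.2 in the 5 of miR-34a-WT and 24.9 ± 2.3 in the 4 of miR-34a-RS, with edgeR adjusted p of 0.704 and 0.474 against control.

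E2F2, an activator, fell with both microRNAs. It was at 49.8, 58.6, 56.5, 59.5 and 59.4 CPM in control replicates 1 to 5. It was at 41.7, 38.5, 40.4, 39.5 and 39.6 CPM in miR-34a-WT replicates 1 to 5. Replicates 1, 2, 3 and 5 of miR-34a-RS had 40.0, 43.2, 42.8 and 41.0 CPM. The control replicate 1 was the lowest of its group and still above all microRNA libraries. The log2 fold changes were -0.51 (SE 0.05, adjusted p = 8.71e-09) with miR-34a-WT and -0.44 (SE 0.05, adjusted p = 2.73e-07) with the abasic duplex. With a 7mer-A1 as its only match, it ranked 102 from the lowest of the 822 genes of that class with miR-34a-WT and 123 with the abasic duplex, and the class medians were -0.060 and -0.084. The microRNAs differed by 0.063 (95% interval -0.047 to 0.17, adjusted p = 0.718).

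E2F3, an activator known for its part in entry into S phase, was the 1 member that passed between the microRNAs in the main fit. That fit had no block for the replicate number, and with such a block E2F7 passed as well. Control replicates 1 to 5 had 133, 133, 139, 134 and 135 CPM. The miR-34a-WT replicates 1 to 5 had 115, 109, 119.7, 111 and 113 CPM, and miR-34a-RS replicates 1, 2, 3 and 5 had 104, 101, 100.3 and 97.5 CPM. The 3 groups did not overlap, with miR-34a-RS lowest. Over all tested genes, 2.16% had every miR-34a-RS library below every miR-34a-WT library. The log2 fold change against control was -0.25 (SE 0.04, adjusted p = 1.39e-05) with miR-34a-WT and -0.42 (SE 0.04, adjusted p = 1.29e-08) with the abasic duplex. Among the 820 genes of the 8mer class, whose medians are given above for E2F5, it ranked 377 from the lowest with miR-34a-WT and 224 with the abasic duplex.

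Between the microRNAs, E2F3 was lower with miR-34a-RS by 0.17 on the log2 scale (log2 fold change -0.17, SE 0.04, 95% interval -0.26 to -0.087, adjusted p = 0.0310), at 88.6% of the miR-34a-WT level. Of all tested genes, 0.535% were lower with miR-34a-RS at this threshold, and 1.03% were higher, beside 1 lower and 0 higher of the 10. Libraries of these groups that carry the same number deviated together, and with the replicate number as a block the log2 fold change of E2F3 was -0.18 (adjusted p = 0.00122). Without the block, single libraries decided the call. The adjusted p was 0.0501 and 0.0522 without control replicates 2 and 4, 0.0892, 0.102 and 0.129 without miR-34a-RS replicates 2, 3 and 5, and 0.0782, 0.122, 0.0601 and 0.0558 without miR-34a-WT replicates 1, 3, 4 and 5. It was also 0.198 with no filter on low counts and 0.0723 in a fit of only these 2 groups. The log2 fold change stayed between -0.19 and -0.15 over all 20 alternatives. The processed pseudogene E2F3P2, which resembles the E2F3 transcript, had 0 to 6 counts per library in control, 9 to 24 with miR-34a-WT and 8 to 15 with the abasic duplex, beside 2978 to 4712 for E2F3.

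E2F4, the main repressor E2F of resting cells, fell without any seed match in its 3′ UTR. Control replicates 1 to 5 had 112, 119, 124, 122 and 131 CPM. The miR-34a-WT replicates had 96.2, 102, 110.1, 108 and 107 CPM and the miR-34a-RS replicates 92.1, 96.2, 111 and 102 CPM. The highest microRNA library, miR-34a-RS replicate 3, lay just under the lowest control library. The log2 fold changes were -0.21 (SE 0.05, adjusted p = 0.00199) with miR-34a-WT and -0.28 (SE 0.06, adjusted p = 0.0004) with the abasic duplex. The microRNAs differed by -0.061 (95% interval -0.18 to 0.056, adjusted p = 0.747).

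E2F6, the E2F that works with Polycomb proteins, did not pass in any comparison. Its libraries ran from 21.5 to 25.4 CPM in control, 22.8 to 26.7 with miR-34a-WT and 22.7 to 26.1 with the abasic duplex, and all 3 groups overlapped. The 95% intervals of its log2 fold change were -0.074 to 0.16 with miR-34a-WT and -0.082 to 0.17 with the abasic duplex against control. E2F1, the activator best known for inducing both S phase and cell death, did not pass either. It ran from 84.8 to 104 CPM in control, 86.8 to 105 with miR-34a-WT and 83.1 to 101 with the abasic duplex, with intervals of -0.065 to 0.18 and -0.15 to 0.11.

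Of the atypical repressors 1 rose. E2F8, which shares 7 exon bases with CSRP3-AS1 on the opposite strand, was at 37.0, 34.1, 34.4, 36.5 and 31.7 CPM in control replicates 1 to 5. It was at 43.9, 43.3, 44.8, 44.1 and 46.5 CPM with miR-34a-WT and at 42.1, 39.6, 42.8 and 40.8 CPM in the abasic group. Both microRNA groups lay above the control group. The rise was 0.36 (SE 0.05, adjusted p = 1.26e-06) with miR-34a-WT and 0.25 (SE 0.05, adjusted p = 0.000357) with the abasic duplex on the log2 scale. All miR-34a-RS libraries lay below all miR-34a-WT libraries, as for 2.16% of tested genes, but the difference of -0.11 (95% interval -0.21 to -0.004) did not pass (adjusted p = 0.389).

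E2F7 was at 80.9, 88.5, 91.5, 85.9 and 85.0 CPM in control replicates 1 to 5. It was at 92.2, 82.8, 98.4, 86.0 and 89.4 CPM with miR-34a-WT and at 84.7, 74.8, 79.2 and 78.1 CPM in the abasic group. All groups overlapped. The log2 fold changes against control were 0.055 (SE 0.05, adjusted p = 0.408) with miR-34a-WT and -0.13 (SE 0.05, adjusted p = 0.0703) with the abasic duplex. Between the microRNAs it was -0.18 (SE 0.05, 95% interval -0.29 to -0.071, adjusted p = 0.0930). With the replicate block that difference was -0.19 with adjusted p = 0.00597, so that 2 of the 10 genes, E2F3 and E2F7, were lower with miR-34a-RS, where 3.43% of all tested genes were. The call between the microRNAs was also gained without miR-34a-RS replicate 1 (adjusted p = 0.0291) and by DESeq2 (adjusted p = 0.0355). Against control, E2F7 passed without control replicate 1 (adjusted p = 0.0396) or miR-34a-RS replicate 1 (adjusted p = 0.0386).

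The DP partners moved in opposite directions. TFDP1, the main DNA-binding partner of the E2Fs, was at 237, 252, 254, 256 and 238 CPM in control replicates 1 to 5. It was at 289, 281, 308, 292 and 284 CPM with miR-34a-WT and at 289, 267, 306 and 288 CPM in the abasic group, and no microRNA library reached down to the controls. It rose by 0.23 (SE 0.04, adjusted p = 9.15e-05) with miR-34a-WT and 0.22 (SE 0.045, adjusted p = 0.000514) with the abasic duplex on the log2 scale.

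TFDP2, its less abundant relative, was at 85.0, 82.2, 82.7, 78.3 and 76.4 CPM in control replicates 1 to 5. It was at 69.2, 63.4, 64.8, 66.6 and 62.6 CPM with miR-34a-WT and at 68.3, 65.2, 63.2 and 62.3 CPM in the abasic group. The controls lay above all microRNA libraries. The log2 fold changes were -0.31 (SE 0.045, adjusted p = 4.01e-06) and -0.32 (SE 0.05, adjusted p = 7.04e-06). With a 7mer-m8 as its best match, TFDP2 ranked 468 from the lowest of 1593 genes of that class with miR-34a-WT and 400 with the abasic duplex. Between the microRNAs, the 95% interval was -0.11 to 0.076 for TFDP1 and -0.11 to 0.086 for TFDP2.

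**Figure D4:**
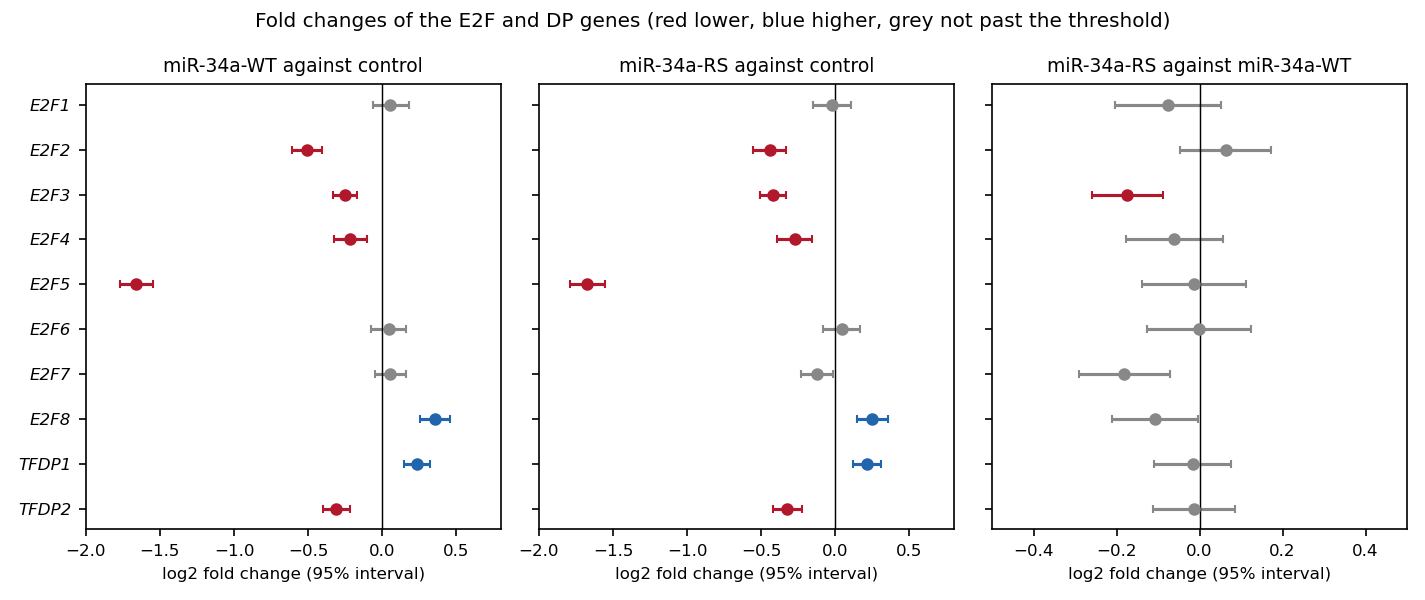
Log2 fold changes of the 10 genes with 95% intervals in the 3 comparisons, coloured by whether they passed an adjusted p of 0.05. E2F5 lies at -1.66 and -1.67 against control. Between the microRNAs E2F3 alone passed in this fit without the replicate block, at -0.17.

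Summed per length, the repressors took a smaller and the atypical members a larger share of the family with each microRNA. E2F4 and E2F5 together gave 28.6% ± 0.28 of the summed FPKM of E2F1 to E2F8 in the 5 control libraries (mean ± SD), 24.0% ± 0.46 in the 5 of miR-34a-WT and 24.5% ± 1.2 in the 4 of miR-34a-RS. E2F7 and E2F8 gave 15.5% ± 0.71, 19.1% ± 0.89 and 18.3% ± 1.1. Their own sum was 22.1 ± 0.65 FPKM in control, 25 ± 1.1 with miR-34a-WT and 22.5 ± 0.93 with the abasic duplex, where the sums overlapped those of the control libraries. The activators E2F1 to E2F3 gave 51.8% ± 0.83, 52.3% ± 0.67 and 52.2% ± 1.1. By gene, mean shares in control, miR-34a-WT and miR-34a-RS were 4.95%, 1.72% and 1.80% for E2F5 and 23.7%, 22.3% and 22.7% for E2F4. Those of E2F8 were 5.88%, 8.22% and 8.12%, and those of E2F7 9.58%, 10.9% and 10.2%. For E2F4 and E2F7 the miR-34a-RS libraries overlapped those of control. E2F1 took 26.3%, 29.9% and 30.1%, E2F2 7.26%, 5.6% and 6.22%, and E2F3 18.3%, 16.8% and 15.9%. The summed level of E2F1 to E2F8 was 143 ± 5.1 FPKM in control, 131 ± 3.8 with miR-34a-WT and 123 ± 3.9 with the abasic duplex. The DP partners summed to 72.9 ± 2.6, 83.3 ± 2.9 and 82.3 ± 4.2 FPKM in the same order. These sums describe the 10 genes and were not tested.

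Upstream of E2F, the RB axis list holds the pocket proteins, the D-type cyclins, the kinases CDK2, CDK4 and CDK6 and the CDK inhibitors. Of its 16 genes 8 fell and 3 rose with miR-34a-WT, where 21.3% of all tested genes fell and 18.9% rose. With miR-34a-RS 7 fell and 3 rose, where 18.4% and 16.2% of all genes did. The count of risen genes is thus near the background. CDK4, a kinase of the pocket proteins, dropped by 1.38 (log2, SE 0.05) with miR-34a-WT and by 1.42 (SE 0.05) with miR-34a-RS. Its relative CDK6 dropped by 1.61 (log2, SE 0.06) and by 1.67 (SE 0.07), and CCND1, the gene of their partner cyclin D1, dropped by 0.92 (log2, SE 0.07) and by 1.23 (SE 0.075). The genes that rose were RBL1, CDKN2C and CDKN2D, the last 2 named after their values were seen. RBL1, which encodes the pocket protein p107, rose from 45.8 ± 1.0 CPM in control to 54.9 ± 3.9 with the natural duplex and 52.9 ± 2.1 with the abasic one (mean ± SD over 5, 5 and 4 libraries). RB1 was at 109 ± 6.2, 113 ± 7.1 and 103 ± 10.8 CPM, and RBL2, which encodes p130, at 102 ± 3.4, 103 ± 3.3 and 97.5 ± 3.0 CPM in control, miR-34a-WT and miR-34a-RS, and neither passed in any comparison. The medians of the list were -0.18 in each comparison with control. CDK4, CDK6, CCND1, RBL1 and RBL2 each overlap a gene of the opposite strand, which makes their counts uncertain.

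CCND1 was the 1 gene of this list that passed between the microRNAs, lower with miR-34a-RS by 0.31 on the log2 scale (SE 0.08, edgeR adjusted p = 0.0401). Of all tested genes 0.535% were lower in this comparison and 1.03% higher. The call of CCND1 was lost in 11 of 20 alternatives, with log2 fold changes of -0.35 to -0.27 over all of them, and with upper-quartile scaling its adjusted p was 0.0518. The number of list genes lower with miR-34a-RS was 0 with that scaling and without any 1 of control replicates 2 and 3, miR-34a-RS replicates 2, 3 and 5 and miR-34a-WT replicates 2, 3, 4 and 5, it was 2 by DESeq2 and, with CCND1 not among them (adjusted p = 0.0630), 2 without miR-34a-RS replicate 1. With the replicate block it was 3, with 1 gene higher, where 3.43% of all tested genes were lower and 625 of 18321 were higher.

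The list of complexes around the repressor E2Fs holds the MuvB core, the B-MYB gene MYBL2 and the Polycomb complex PRC1.6 of E2F6. Of its 15 genes 2 fell and 4 rose in each comparison with control, with medians of 0.061 and 0.010. These counts are near the shares of all tested genes, 21.3% lower and 18.9% higher with miR-34a-WT and 18.4% and 16.2% with miR-34a-RS. MYBL2, itself a classical E2F target, fell by 0.58 (SE 0.05) with miR-34a-WT and 0.49 (SE 0.05) with the abasic duplex on the log2 scale, from 288 ± 18 CPM (SD, n = 5) in the control libraries. LIN54, the DNA-binding subunit of MuvB, rose by 0.53 (SE 0.06) and 0.49 (SE 0.07), and RYBP, a Polycomb subunit, by 0.29 (SE 0.04) and 0.29 (SE 0.05). RING1 also fell and LIN9 and LIN52 also rose in both, named after their values were seen. Against control with miR-34a-RS, RING1 lost its call in 6 of 20 alternatives, with adjusted p of 0.0535 with upper-quartile scaling, 0.129 with no filter on low counts and 0.164 without miR-34a-RS replicate 1. With miR-34a-RS the count of fallen genes was 1 with upper-quartile scaling, with no filter, and without control replicate 2, control replicate 5 or miR-34a-WT replicate 4, and 4 with the replicate block. No gene of the list passed between the microRNAs, though 1 was higher without miR-34a-RS replicate 1.

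Downstream, 40 genes of the G1/S transition that E2F is known to activate were measured. With miR-34a-WT 15 fell and 5 rose, where 21.3% of all tested genes fell and 18.9% rose. With miR-34a-RS 16 fell and 5 rose, where 18.4% and 16.2% of all genes did. The risen genes were no larger a share of the list than of all genes. The list medians were -0.022 and -0.054, against -0.019 and -0.014 over all tested genes. MCM3, a subunit of the replicative helicase, fell from 488 ± 7.7 CPM in control to 266 ± 10.5 with miR-34a-WT and 247 ± 15.4 with the abasic duplex (mean ± SD, same numbers of libraries). CDC25A, which encodes the phosphatase that activates CDK2, had log2 fold changes of -0.70 (SE 0.04) with miR-34a-WT and -0.88 (SE 0.04) with the abasic duplex. Those of the thymidine kinase gene TK1 were -1.53 (SE 0.07) and -1.48 (SE 0.08). BRCA1, POLA2, SLBP and GINS2, named after their values were seen, were among the genes that rose, at log2 fold changes of 0.30, 0.22, 0.22 and 0.15 with miR-34a-WT. With miR-34a-WT the count of risen genes was 8 with the replicate block and 9 by DESeq2.

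Between the microRNAs, 0.535% of all tested genes were lower with miR-34a-RS and 1.03% higher. Of the 40 G1/S genes 2 were lower, CDC25A at -0.19 (SE 0.04, edgeR adjusted p = 0.0152) and RRM2 at -0.17 (edgeR adjusted p = 0.025). The call was lost in 5 of 20 alternatives for CDC25A and in 7 of 20 for RRM2. Another 2 were higher, GINS1 at 0.61 (edgeR adjusted p = 5.8e-07) and MCM5 at 0.26 (edgeR adjusted p = 0.00334). All but CDC25A were named after their values were seen. With no filter on low counts, or without miR-34a-RS replicates 3 or 5 or miR-34a-WT replicate 3, none was lower. In the fit of only the 2 groups, or without miR-34a-RS replicate 2 or miR-34a-WT replicates 2 or 4 the count was 1. Without miR-34a-RS replicate 1 the number of higher genes was 4. With the replicate block 5 were lower and 4 higher, where 3.43% of all tested genes were lower and 625 of 18321 were higher.

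**Figure D5:**
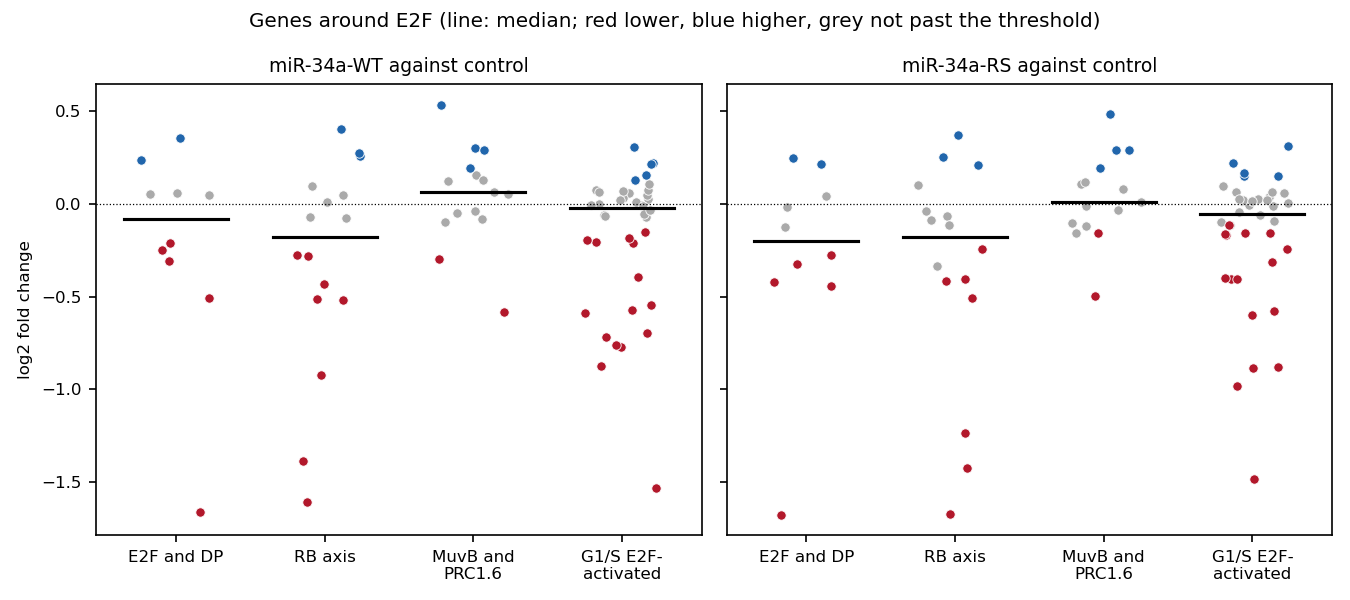
Log2 fold changes against control for the E2F and DP genes and 3 lists around them, 1 point per gene, with a line at the median of each list. The lowest points of the RB axis are CDK6 and CDK4, and those of the G1/S list TK1 and MCM3. The comparisons share their control libraries.

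The promoters of several members carry the E2F word itself. The words TTTCCCGC, TTTGGCGC, TTTCGCGC and TTTGCCGC were searched on both strands in RefSeq promoters (GRCh38.p14) from 250 bases before to 50 bases after each start site. Of 27305 genes with such a promoter 3.99% held a word, and of 8 members with an entry 4 did, E2F1, E2F2, E2F3 and TFDP1. E2F4, E2F6, E2F7 and TFDP2 had entries without a word, and E2F5 and E2F8 were not analysed here. Of 35 listed G1/S genes with an entry 57.1% held a word. The windows of 30 bases below have the word in capitals and are shown because E2F genes are themselves known targets of E2F.
E2F1, 33 bases before the start: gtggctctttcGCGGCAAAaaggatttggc
E2F1, 20 bases before the start: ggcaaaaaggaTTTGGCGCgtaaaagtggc
E2F2, 42 bases before the start: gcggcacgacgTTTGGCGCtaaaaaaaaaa
E2F3, 53 bases before the start: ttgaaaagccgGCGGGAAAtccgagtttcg
TFDP1, 120 bases before the start: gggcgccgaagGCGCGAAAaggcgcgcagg

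These lie at chr20:33686400-33686429 and chr20:33686387-33686416 (minus strand), chr1:23531257-23531286 (minus strand), chr6:20401815-20401844 (plus strand) and chr13:113584622-113584651 (plus strand). The 4 members with a word did not move together. E2F2 and E2F3 fell, TFDP1 rose and E2F1 did not pass with either microRNA.

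E2F4 and E2F5 also serve the multiciliated-cell programme, in which geminin relatives such as multicilin, encoded by MCIDAS, bind them with TFDP1. Of the 10 genes on this list 7 had enough counts, and with miR-34a-WT 3 fell and 2 rose, where 21.3% of all tested genes fell and 18.9% rose. With miR-34a-RS 3 fell and 1 rose, where the shares of all genes were 18.4% and 16.2%. MYB, a transcription factor gene, fell from 7.79 ± 0.68 CPM in control to 2.52 ± 0.095 with miR-34a-WT and 2.31 ± 0.41 with the abasic duplex (mean ± SD, same numbers of libraries). TP73, which encodes a p53 relative, fell with each microRNA, at log2 fold changes of -0.57 (SE 0.06) and -0.42 (SE 0.06). MCIDAS, named after its values were seen, fell from 4.73 ± 0.49 to 2.75 ± 0.22 and 2.79 ± 0.48 CPM. FOXJ1, a master regulator of motile cilia, was near the limit of detection in control, at 0 to 0.20 CPM, and rose to 0.70 to 1.2 CPM with miR-34a-WT and 0.42 to 0.96 CPM with the abasic duplex. RFX3 rose with miR-34a-WT by 0.38 (SE 0.08), named after its values were seen, and was at 0.13 (SE 0.09, adjusted p = 0.299) with miR-34a-RS. MYB, TP73 and FOXJ1 overlap antisense genes. No gene of the list passed between the microRNAs, though 1 was lower with the replicate block or without miR-34a-RS replicate 1. With the block 3.43% of all tested genes were lower. Of the germline genes STAG3, SMC1B and SLC25A31, which E2F6 is known to silence, 2 had enough counts and neither passed in any comparison.

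Across the 14 libraries, the genes whose log2 CPM followed E2F5 most closely among 11049 others were TTL, PPP1R11 and TUBB (Pearson r = 0.996, 0.995 and 0.995). For E2F2 they were NUMBL, RPAP1 and MYBL2 (r = 0.984, 0.983 and 0.982), and for E2F8 TOM1L1, SPA17 and TRAK2 (r = 0.969, 0.967 and 0.964). These correlations describe libraries that share 3 group means and carry no test. With miR-34a-WT the log2 fold changes were -0.77 for TTL, -1.92 for PPP1R11 and -0.76 for TUBB, beside -1.66 for E2F5.

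Library totals ran from 22242203 to 36255297 counts, and each member had at least 366 counts in every library. Of the 6 HEK293T background genes all had enough counts, with summed levels of 241 to 261 CPM in control, 198 to 228 with miR-34a-WT and 203 to 227 with the abasic duplex, and 4 fell and 1 rose with miR-34a-WT and 3 fell and 1 rose with miR-34a-RS. Of 8 fibroblast markers 5 had enough counts (summed 46.8 to 58.7, 43.0 to 47.9 and 45.2 to 50.2 CPM), with COL1A2 at 0 in every group, and 3 fell with each microRNA. Of 6 blood cell markers 1 had enough counts and it did not pass. CD3E was at 0 in control and miR-34a-WT, and the summed level was at most 3.23 CPM. Beside these marker counts, 21.3% of all tested genes fell and 18.9% rose with miR-34a-WT. With miR-34a-RS 18.4% fell and 16.2% rose. The part of these markers in the results was not tested. Whether replicates came from separate cultures is not stated in the labels. The p-values then cover only library-to-library spread, possibly technical.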

How the data were processed

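Whole-number read counts per gene were deposited by the authors as 1 table for 14 libraries, not normalised. STAR 2.7.11a, featureCounts (Subread 2.0.3), edgeR 3.42.4 and the build GRCh38 are named in the submitters' processing notes. The annotation release and strand setting are not given in the sources used here. Groups come from the sample titles. Members and gene lists were chosen with earlier results of these data known. All members are named, and from each list up to 3 genes by the smallest adjusted p, with the pocket proteins. For the 3 members with the largest change in miR-34a-WT against control, the 3 genes with the highest Pearson r are named, among those with a mean of at least 5 CPM.

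The quasi-likelihood test of edgeR 4.0.16 (R 4.3.3) was run on the counts (TMM, filterByExpr, robust glmQLFit and glmQLFTest, 1 fit of 3 group means over all libraries, Benjamini-Hochberg adjustment over 18321 genes, threshold 0.05). CPM are TMM-scaled, except the summed marker levels. Those sums take every listed marker in the count table, also ones with too few counts, over raw library totals. The log2 CPM used a prior count of 2. FPKM divide CPM by summed exon length in GENCODE 29. Its identifiers cover 99.7% of counts. Intervals are at the 95% level. The biological coefficient of variation was 0.0615. No replicate pair agreed within sampling noise (chi-square per degree of freedom at least 2.72 over 26 pairs).

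Same-numbered libraries of miR-34a-RS and miR-34a-WT deviated together (r = 0.373 to 0.716 over 11259 genes, 4 pairs, each over 0.1), so the numbers were taken as pairs there. The scripts were tested on simulated data. DESeq2 1.42.0, other scalings, no filter, fits of 2 groups and leaving out each library were tried as alternatives.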

Additional observations from a re-analysis of the deposited data

Results flagged for a closer look

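E2F3 differed between the microRNAs, lower with the abasic than with the natural duplex at a log2 fold change of -0.17 (SE 0.04, edgeR adjusted p = 0.0310), and all 4 miR-34a-RS libraries lay below all 5 miR-34a-WT libraries. Such a separation in the lower direction was seen for 2.16% of tested genes. The call of E2F3 was lost in 11 of 20 alternatives. The difference is the tested contrast itself.

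In control, replicate 5 stood apart for E2F5 at 39.4 CPM, where the next lowest library had 42.2 CPM. The gap was 0.75 of the range of the group. This was 1 of 30 groups of libraries examined, and chance sets apart about 1 in 20.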

How the results depend on the processing

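Over 20 alternatives to each of the 30 member results, 558 of 600 values kept their direction and their side of the threshold. The calls of E2F2, E2F3, E2F4, E2F5, E2F8, TFDP1 and TFDP2 against control kept theirs in every alternative. Between the microRNAs 1 member was lower with the abasic duplex by edgeR, and the count was 2 with the replicate block, 2 by DESeq2, 0 with no filter on low counts and 0 in the fit of only the 2 groups, and 0 to 2 leaving out 1 library. Over all tested genes this comparison gave 98 lower and 188 higher, and 629 and 625 with the replicate block. It gave 220 lower by DESeq2 and 60 lower in the fit of only the 2 groups. Leaving out 1 library gave 31 to 339 lower and 111 to 391 higher, with the most without miR-34a-RS replicate 1. Against control the numbers paired the microRNA libraries only in part. Correlations of same-numbered libraries ran from -0.156 to 0.557 for miR-34a-WT (mean 0.291, against -0.0712 for other pairs). For miR-34a-RS they ran from -0.00151 to 0.478 (mean 0.273, against -0.0701). Of these libraries 3 of 5 and 2 of 4 correlated best with their own number. With the block E2F7 was -0.135 against control with miR-34a-RS (adjusted p = 0.012), and no other member's call against control changed.

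Values near 0 that never passed changed sign. With no filter E2F1 was 0.00466 in miR-34a-RS against control and E2F6 0.00951 between the microRNAs. With upper-quartile factors E2F5, E2F6 and TFDP2 were 0.00169, 0.0134 and 0.0022 between the microRNAs. In the fit of 2 groups E2F6 was 0.000223. Leaving out 1 library, the ranges were -0.0592 to 0.0444 for E2F1 against control with miR-34a-RS and, between the microRNAs, -0.0466 to 0.0121 for E2F5, -0.0351 to 0.0323 for E2F6, -0.0485 to 0.0163 for TFDP1 and -0.0304 to 0.00819 for TFDP2. The cause was not tested. FOXJ1 had at most 0.20 CPM in control, so its level there is poorly measured, and listed genes with too few counts were not tested.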
